A study of Mus musculus with 6 samples.

Results

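The clustered histone genes are the replication-dependent genes that supply histones to newly copied DNA. They were taken as every gene whose symbol starts with Hist, a cluster number and h (Hist1h2ao, for example), which gave 60 of the 10780 genes measured: 4 of linker histone H1, 16 of H2A, 15 of H2B, 12 of H3 and 13 of H4. RNA was sequenced from RAW264.7, a mouse macrophage-like cell line, in 3 groups of 2 libraries, numbered replicate 2 and replicate 3. The groups were cells that received Sal-B at 50 μmol/L together with LPS (lipopolysaccharide, which bacteria carry in their outer membrane) at 10 ng/ml, cells with LPS alone at 10 ng/ml, and control cells with neither. All libraries came from this 1 line, no group received Sal-B without LPS, and the labels give neither the treatment time nor whether replicates were separate cultures, so p-values reflect spread between libraries that may be technical. Levels are FPKM, fragment counts divided by transcript length and by the size of the library.

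DNA wraps around an octamer of the core histones H2A, H2B, H3 and H4, and H1 binds the linker DNA between octamers. Cells make most of these proteins during S phase from clustered, intronless genes whose mRNAs end in a conserved stem-loop, bound by Slbp, in place of a poly(A) tail. Some of the genes also yield polyadenylated mRNA, and replacement histones such as H2A.Z and H3.3 come from separate, polyadenylated genes that are not tied to S phase. The labels name both poly(A) selection and rRNA removal and do not say which was used on each library, and mRNA without a tail is poorly caught by poly(A) selection, so the FPKM of these genes need not follow the amount of histone mRNA in the cells.

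The members lay mainly in 2 clusters of the GRCm38 genome, 49 genes at chr13:21715763-23764406 and 9 genes at chr3:96220361-96270132. Hist3h2a lay alone at chr11:58954685-58956830 and Hist4h4 at chr6:136801553-136804415. All 60 loci were identical to those of GENCODE M21, whose gene models held the histone stem-loop in 42 of the 60 members (70%), against 39 of 58725 other protein-coding transcripts (0.0664%). Members were counted by gene, with a match in any transcript, and the others by transcript. The search used a fixed pattern of 16 bases, so the length was set in advance. Its matches in members came in 8 versions, each with a stem of 6 pairs around a loop of 4. The commonest, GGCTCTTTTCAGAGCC, stood in 23 members of H1, H2A, H2B and H3, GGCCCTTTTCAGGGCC stood in 7 H4 genes, and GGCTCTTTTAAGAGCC stood in 5 H2B and H3 genes. The stem-loops of 6 members described in detail show how close these 3' ends are across classes, with loop bases in capitals and bases as in the DNA sense strand:
Hist1h2ap, chr13:21833026-21833049, minus strand: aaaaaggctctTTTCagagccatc
Hist1h2bb, chr13:23747198-23747223, plus strand: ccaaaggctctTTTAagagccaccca
Hist1h3e, chr13:23561898-23561923, minus strand: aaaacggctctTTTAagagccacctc
Hist1h4d, chr13:23581945-23581970, plus strand: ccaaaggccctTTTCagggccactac
Hist1h1e, chr13:23621777-23621802, minus strand: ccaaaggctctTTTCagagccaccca
Hist1h1c, chr13:23739507-23739532, plus strand: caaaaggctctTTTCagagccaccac

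Near-identical copies limit what a level of 1 gene means here. Of the 60 members, 24 shared over 50% of their 100-base stretches with another clustered histone gene, and a fragment from such a stretch can come from either. The median shared part was 70.7% in H2A, 40.1% in H2B, 40.0% in H3, 19.0% in H4 and 2.53% in H1. Hist1h2ao and Hist1h2ap had identical open reading frames, as did Hist2h2aa1 and Hist2h2aa2. Identical reading frames also occurred in H2B, H3 and H4, where the highest identity between genes was 100%. How fragments matching several genes were counted is not given in the sources used here, so single-gene values of these members are uncertain and class sums are given beside them.

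Libraries held 8639 to 9847 genes at 1 FPKM or more, and replicates correlated across genes at r = 0.994 in LPS+Sal-B, 0.990 in LPS and 0.966 in control. No whole-read steps were recovered from the values, so depth is unknown. The macrophage markers summed to 726 to 739 FPKM in LPS+Sal-B, 1561 to 1563 in LPS and 1468 to 1941 in control, with 9 of 10 listed markers in the table. Of 14 markers of other cell types only Pecam1 was in the table, at 1.02 FPKM or less. In log2(FPKM + 1), where folds of low genes are understated, the median difference over all genes tested was -0.22 in LPS+Sal-B against LPS, -0.40 in LPS against control and -0.63 in LPS+Sal-B against control.

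H2A genes carried most of the histone signal. The 16 H2A genes together stood at 1402 and 1337 FPKM in the LPS+Sal-B libraries, 471 and 480.4 in the LPS libraries and 1549.9 and 799 in the control libraries. Both LPS libraries were below all others, while the LPS+Sal-B pair lay between the control libraries. With libraries scaled to the same median, the H2A sums were 1791 and 1666 in LPS+Sal-B, above both control libraries at 1139.9 and 605. H2A made up 79.9% to 93.9% of all clustered histone FPKM in each library, and the clustered histones made up 0.158% to 0.504% of each library's FPKM total. H3 genes summed to 43.7 and 47.1 FPKM in LPS+Sal-B, 24.0 and 20.9 in LPS and 37.4 and 34.0 in control, so the LPS+Sal-B libraries were highest and the LPS libraries lowest. H4 genes summed to 33.5 and 32.4 FPKM in LPS+Sal-B, 18.8 and 13.4 in LPS and 11.6 and 14.9 in control, and here the LPS and control libraries overlapped. With the same median, both LPS sums of H4 lay above control, at 19.8 and 14.3 against 8.54 and 11.3.

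**Figure D1:**
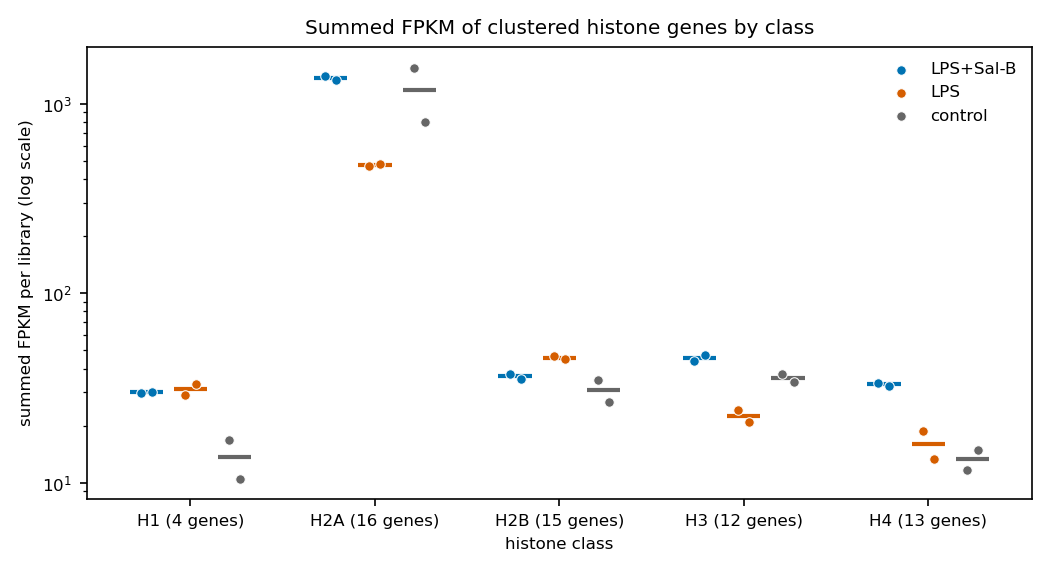
Summed FPKM of the H1, H2A, H2B, H3 and H4 genes in each library (points, log axis) with the mean of the 2 libraries of a group (bars). H2A stands above the other classes in every library, and its sum is 471 and 480.4 FPKM in the LPS libraries against 799 and 1549.9 in the control libraries.

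H2B and H1 sums ran differently. The 15 H2B genes summed to 37.4 and 35.3 FPKM in LPS+Sal-B, 46.3 and 44.7 in LPS and 34.8 and 26.8 in control, with the LPS libraries highest. The order was another without Hist1h2bc, where the sums were 31.2 and 29.5 FPKM in LPS+Sal-B, 21.3 and 21.4 in LPS and 25.4 and 23.0 in control. With libraries scaled to the same median, that sum was higher in LPS than in control, at 22.5 and 22.8 against 18.7 and 17.4. The 4 H1 genes summed to 29.8 and 30.0 FPKM in LPS+Sal-B, 29.0 and 33.0 in LPS and 16.7 and 10.5 in control. Without Hist1h1c, the sums of the other 3 H1 genes were 21.7 and 21.5 FPKM in LPS+Sal-B, 8.596 and 8.614 in LPS and 5.58 and 5.49 in control, so the 3 groups then stood apart in that order.

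Tests covered 53 of the 60 members, those with 2 or more libraries at 1 FPKM or above, among 10014 genes with limma (adjusted p under 0.05 by Benjamini-Hochberg). Some members passed this filter only through the group where they were high, and they are counted among the rises below. Examples are Hist1h2bj, Hist1h3f and Hist1h4a through LPS+Sal-B and Hist1h2br through LPS. When Sal-B was added, 29 members rose and 4 fell in LPS+Sal-B against LPS, against 10.5% and 31.8% of all genes tested, and the median member stood 0.83 higher on the log2 scale. With LPS alone, 8 members rose and 17 fell against control, against 14.2% and 48.9% of all genes, with a median of -0.14. For LPS+Sal-B against control, 18 members rose and 3 fell, against 14.0% and 58.8% of all genes, with a median of 0.34. With libraries scaled to the same median, 11 rose and 11 fell in LPS against control and 32 rose and 2 fell in LPS+Sal-B against control. After quantile normalization these counts were 13 and 8 in LPS and 33 and 1 in LPS+Sal-B. The shares of all genes above are from the fit without rescaling and do not apply to these counts. The median of all genes became 0.01 in LPS and -0.02 in LPS+Sal-B with the same median, and -0.04 in each after quantile normalization. The median of tested members was 0.08 in LPS and 0.86 in LPS+Sal-B with the same median. After quantile normalization it was 0.27 and 0.95. Shares of all genes called under these scalings are not given here, so the rescaled counts have no share beside them. The LPS libraries enter the first pair of comparisons and the control libraries enter the last pair, so these counts are not separate evidence. Outside H2A, where copies are most alike, 17 of 37 tested members rose and 3 fell in LPS+Sal-B against LPS.

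The counts rested on both libraries of a group. A fit without 1 library leaves 1 library in a group and less power for every gene. Shares of all genes in those fits are not given here. The changed counts, here and in each class below, are therefore not read as particular to histone genes. With any 1 treated library left out, the median tested member stood 0.69 to 0.86 higher in LPS+Sal-B against LPS. The median of all genes was then -0.24 to -0.21. The filter was repeated after a library was left out, so members could leave the test. Without LPS+Sal-B replicate 2 and without LPS+Sal-B replicate 3, tested H4 genes went from 11 to 8 and 9. Tested H3 genes went from 12 to 10 and 11, and tested H2B genes from 10 to 9 in both. Some of the lost calls, such as those of Hist1h4a, belong to members no longer tested. For LPS+Sal-B against LPS the 29 rises became 6 without LPS+Sal-B replicate 2, 8 without LPS+Sal-B replicate 3, 17 without LPS replicate 2 and 14 without LPS replicate 3, and the 4 falls became 1, 0, 0 and 0. For LPS against control the 8 rises became 5 without LPS replicate 2 and 4 without LPS replicate 3, and the 17 falls became 9 without LPS replicate 3. For LPS+Sal-B against control the 18 rises became 9 without LPS+Sal-B replicate 2 and 31 without control replicate 2, and the 3 falls became 13 without control replicate 3. Without any test, both LPS+Sal-B libraries stood above both LPS libraries in 45 of the 60 members and below in 8, against 24.9% and 58.1% of genes tested. Both LPS libraries stood above both control libraries in 11 members and below in 24, against 20.4% and 60.8% of genes tested. Both LPS+Sal-B libraries stood above both control libraries in 34 members and below in 6, against 19.2% and 67.9% of genes tested.

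**Figure D2:**
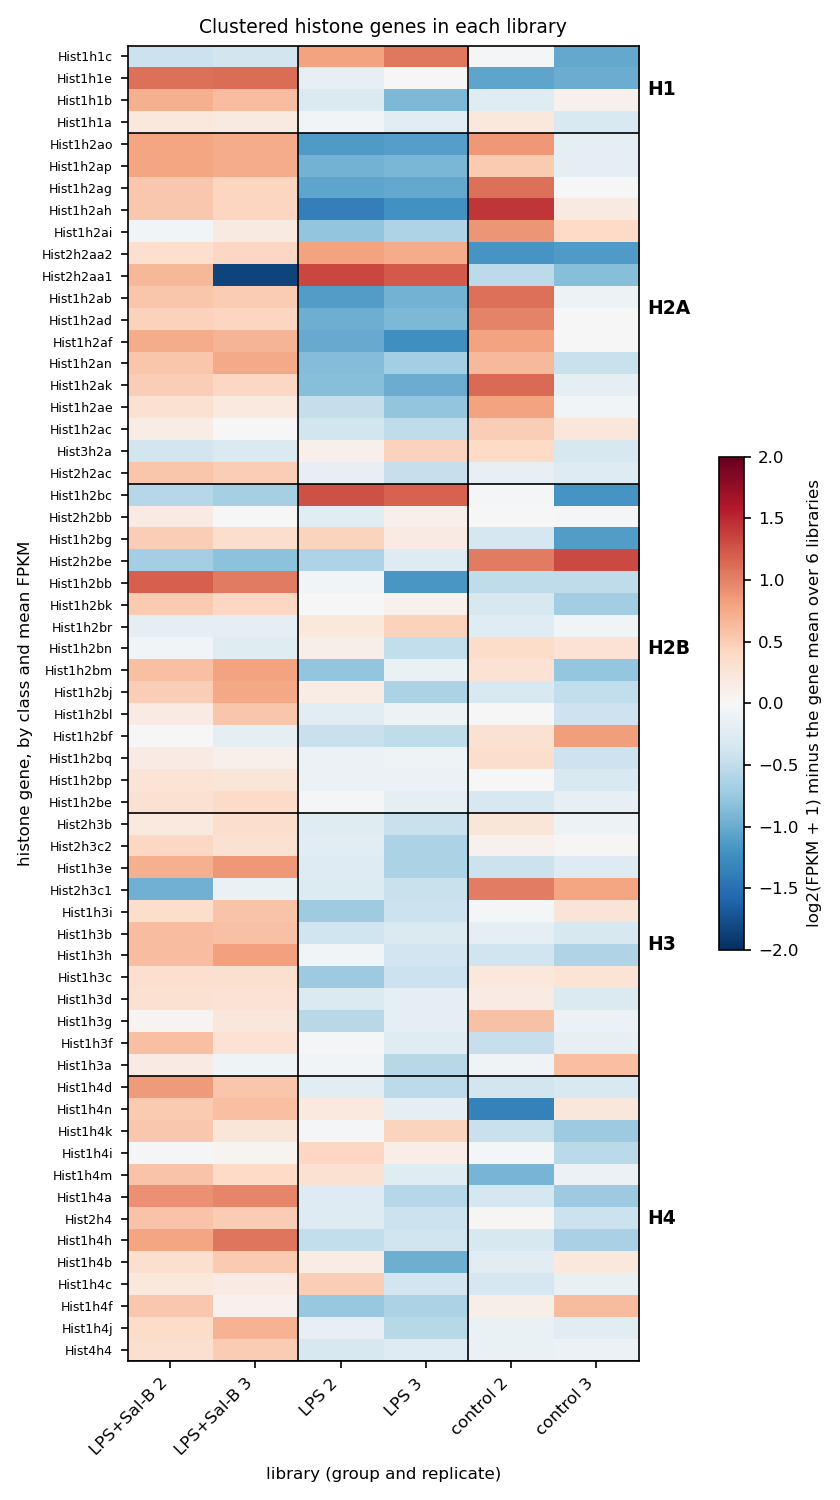
Level of each of the 60 histone genes in each library as log2(FPKM + 1) minus the gene's mean over the 6 libraries (red above, blue below), ordered by class and mean FPKM. Most H2A genes are lowest in the 2 LPS libraries and differ between the 2 control libraries, while Hist1h2bc and Hist1h1c are highest in LPS.

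Most H2A genes were lower with LPS alone and higher when Sal-B was added. Of the 16 H2A genes, 12 rose and 1 fell in LPS+Sal-B against LPS, with a median log2 fold change of 1.38. Of all genes tested, 10.5% rose and 31.8% fell there. LPS alone against control gave 1 rise and 11 falls, with a median of -1.22, and 2 and 7 with libraries scaled to the same median. LPS+Sal-B against control gave 2 rises and 1 fall, with a median of 0.003, but 6 and 0 with libraries scaled to the same median and 5 and 0 after quantile normalization. Without rescaling, 14.2% of all genes tested rose and 48.9% fell in LPS against control, and 14.0% and 58.8% in LPS+Sal-B against control. The H2A count in LPS+Sal-B against control is taken up next. That count turned on the control libraries, with 11 rises and 0 falls without control replicate 2 and 3 rises and 9 falls without control replicate 3. The 12 rises became 2 without either LPS+Sal-B library and 3 without either LPS library, and the 11 falls became 4 without LPS replicate 2 and 5 without LPS replicate 3. Genes of the chromosome 13 cluster made up all 11 falls with LPS, and the called rise was Hist2h2aa2 of the chromosome 3 cluster. Its copy Hist2h2aa1 was also higher in both LPS libraries than in control but did not pass.

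Hist1h2ao (chr13:21810465-21810944, plus strand), an H2A gene and the highest member by mean, stood at 483 and 467 FPKM in LPS+Sal-B, 126 and 128 in LPS and 509 and 245 in control. Its LPS libraries were below every other library. It rose by 1.89 ± 0.32 on the log2 scale in LPS+Sal-B against LPS (SE; limma, adjusted p = 0.00851) and fell by 1.47 ± 0.32 in LPS against control (adjusted p = 0.0109). The rise was lost without any 1 of the 4 treated libraries (adjusted p up to 0.0606), and the fall without either LPS library (adjusted p up to 0.0584). Hist1h2ap (chr13:21833026-21833507, minus strand), which has the same open reading frame, stood at 494 and 479.8 FPKM in LPS+Sal-B, 147 and 151 in LPS and 409 and 247 in control. Its group means ran in the same order as those of its copy. It rose by 1.70 ± 0.23 in LPS+Sal-B against LPS (adjusted p = 0.00456), a call kept with any 1 library left out. It fell by 1.09 ± 0.23 in LPS against control (adjusted p = 0.00916), a call lost without LPS replicate 2 (adjusted p = 0.0546) and when libraries were scaled to the same median. Between them these 2 genes held most of the H2A sum, and the other 14 H2A genes summed to 424 and 389.8 FPKM in LPS+Sal-B, 198 and 201 in LPS and 631 and 306 in control.

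Hist1h2ag (chr13:22042460-22042944, minus strand) stood at 149 and 138 FPKM in LPS+Sal-B, 49.1 and 49.8 in LPS and 222 and 103 in control. It rose by 1.52 ± 0.34 in LPS+Sal-B against LPS (limma, adjusted p = 0.0183; up to 0.0980 without 1 treated library, each of which ended the call). It fell by 1.59 ± 0.34 in LPS against control (adjusted p = 0.00938; up to 0.0523 without 1 LPS library, either of which ended the call). Control replicate 2 was the highest library of this gene and control replicate 3 lay below both LPS+Sal-B libraries. Hist1h2ah (chr13:22035164-22035568, minus strand) had the largest fall with LPS on the log2(FPKM + 1) scale among members that passed, at 122 and 114 FPKM in LPS+Sal-B, 32.1 and 36.0 in LPS and 228 and 95.3 in control. On the ratio of means, where it stood at 0.209, the low gene Hist1h4f was lower, at 0.0373. Hist1h2ah fell by 2.09 ± 0.39 in LPS against control (adjusted p = 0.00582) and rose by 1.76 ± 0.39 in LPS+Sal-B against LPS (adjusted p = 0.0175). The second call was lost without any 1 of the 4 treated libraries (adjusted p up to 0.0951).

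Hist1h2af (chr13:23533906-23534304, plus strand) was low but steady between LPS+Sal-B replicates, at 9.63 and 9.18 FPKM in LPS+Sal-B, 2.19 and 1.72 in LPS and 10.2 and 5.42 in control. It rose by 1.82 ± 0.27 in LPS+Sal-B against LPS (limma, adjusted p = 0.00556) and fell by 1.52 ± 0.27 in LPS against control (adjusted p = 0.00470), and both calls held with any 1 library left out. Hist1h2ai (chr13:21716422-21716814, plus strand) had the most negative difference from control in LPS+Sal-B of the 16 H2A genes, at 35.4 and 41.5 FPKM in LPS+Sal-B, 20.7 and 23.5 in LPS and 68.1 and 48.5 in control. The 3 groups did not overlap. It rose by 0.77 ± 0.18 in LPS+Sal-B against LPS (adjusted p = 0.0228; up to 0.130 without 1 treated library, each of which ended the call) and fell by 1.34 ± 0.18 in LPS against control (adjusted p = 0.00204). Its fall of 0.57 ± 0.18 in LPS+Sal-B against control (adjusted p = 0.0331) was lost when any 1 library other than control replicate 3 was left out (adjusted p up to 0.159), under quantile normalization and in a fit of only the 2 groups, and its sign turned when libraries were scaled to the same median, where it stood at 0.17.

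Hist2h2aa1 and Hist2h2aa2 face away from each other in the chromosome 3 cluster, and Hist2h2aa2 was the H2A gene that rose in LPS against control. Hist2h2aa2 (chr3:96239749-96240276, minus strand) stood at 23.1 and 24.3 FPKM in LPS+Sal-B, 32.2 and 30.9 in LPS and 7.43 and 7.71 in control, with no overlap between groups. It rose by 1.92 ± 0.09 in LPS against control (limma, adjusted p = 0.000145) and by 1.53 ± 0.09 in LPS+Sal-B against control (adjusted p = 0.000109), both with any 1 library left out. Its fall of 0.40 ± 0.09 in LPS+Sal-B against LPS (adjusted p = 0.0164) was lost without any 1 treated library (adjusted p up to 0.144) and under every other scaling tried. Hist2h2aa1 stood at 24.8 and 3.51 FPKM in LPS+Sal-B, 39.9 and 36.8 in LPS and 10.2 and 7.94 in control, and passed no test. In LPS against control it stood 1.97 ± 0.77 higher (limma, adjusted p = 0.0685), with no overlap. That SE comes from a fit that includes its unlike LPS+Sal-B libraries. Hist2h2aa1 was described after its values were seen, because 1 of its LPS+Sal-B libraries stands apart while its copy does not. All of the 100-base stretches of Hist2h2aa2 also lay in another clustered histone gene.

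Of the remaining H2A genes, Hist1h2ab, Hist1h2ac, Hist1h2ad and Hist1h2ak rose in LPS+Sal-B against LPS and fell in LPS against control. Hist1h2ab, the highest of these, stood at 20.8 and 20.0 FPKM in LPS+Sal-B, 5.89 and 6.71 in LPS and 31.1 and 12.9 in control. Hist1h2an rose in LPS+Sal-B against LPS, and Hist1h2ae fell in LPS against control. Hist2h2ac rose in LPS+Sal-B against both other groups, at 2.49 and 2.31 FPKM in LPS+Sal-B, 1.12 and 0.720 in LPS and 1.10 and 0.968 in control. Hist3h2a passed no test, at 0.969 and 1.09 FPKM in LPS+Sal-B, 1.73 and 2.50 in LPS and 2.34 and 1.04 in control.

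The control replicates disagreed on H2A more than on the other classes. Control replicate 2 was higher than control replicate 3 in 15 of 16 H2A genes, with a median log2 difference of 0.83, against 0.06 between LPS+Sal-B replicates 2 and 3 and -0.02 between LPS replicates 2 and 3. In the list of 29 S-phase and DNA replication genes, 28 were higher in control replicate 2, with a median difference of 0.92. The other histone classes had medians of 0.22 in H1, 0.19 in H2B, 0.10 in H3 and -0.02 in H4. Against control replicate 3 alone, 11 H2A genes rose and 0 fell in LPS+Sal-B by limma, and against control replicate 2 alone 3 rose and 9 fell, so no direction of H2A against control holds in LPS+Sal-B. Fewer cells in S phase and less histone mRNA per cell cannot be told apart in these bulk libraries.

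**Figure D3:**
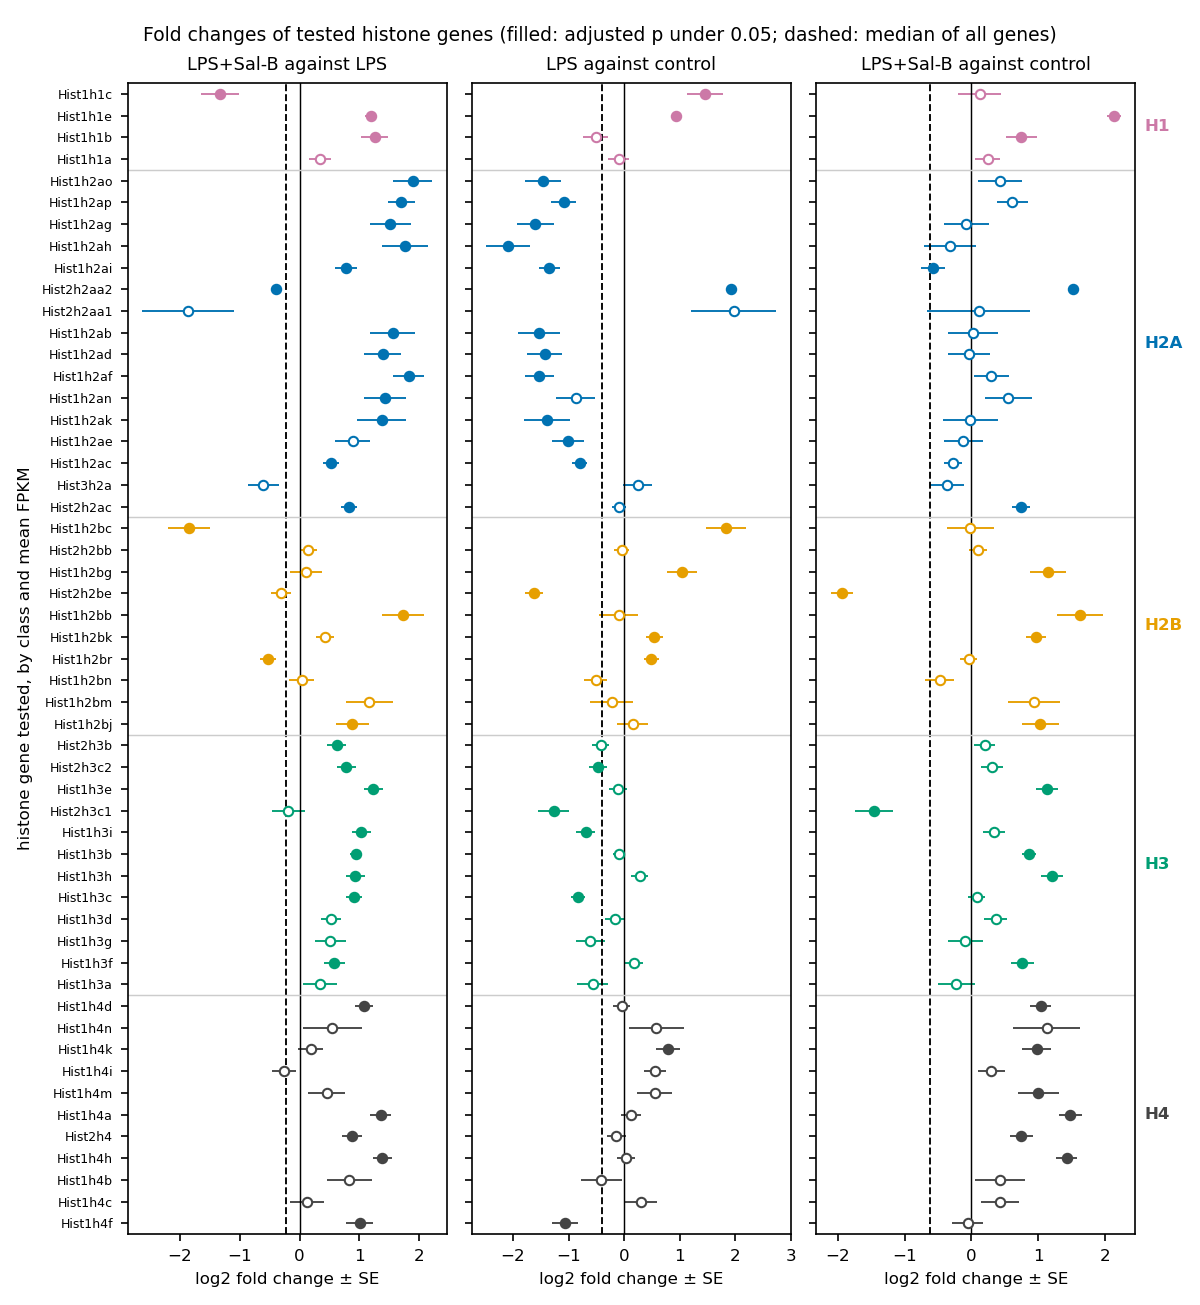
Log2 fold change ± SE of the 53 tested histone genes in the 3 comparisons (filled points passed adjusted p under 0.05, dashed line is the median of all 10014 genes tested). In LPS+Sal-B against LPS most H2A, H3 and H4 genes lie right of the dashed line at -0.22, while in LPS against control most H2A genes lie left of the dashed line at -0.40.

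H2B genes moved in both directions. Of 10 tested H2B genes, 2 rose and 2 fell in LPS+Sal-B against LPS, 4 rose and 1 fell in LPS against control, and 4 rose and 1 fell in LPS+Sal-B against control. Shares of all genes tested were 10.5% and 31.8%, 14.2% and 48.9%, and 14.0% and 58.8% in the same order. Without either LPS+Sal-B library 0 rose and 0 fell against LPS, without either LPS library 0 fell there, and the 4 rises with LPS became 1 without either LPS library and 2 without either LPS+Sal-B library. The 4 rises in LPS+Sal-B against control became 2 without LPS+Sal-B replicate 2. With the same median and after quantile normalization, 6 and 7 rose and 1 fell in LPS+Sal-B against control, and in LPS+Sal-B against LPS 4 rose under both, with 2 and 1 falls. Hist1h2bc (chr13:23684199-23692908, plus strand), the highest H2B gene, stood at 6.19 and 5.76 FPKM in LPS+Sal-B, 24.9 and 23.4 in LPS and 9.44 and 3.76 in control. Both LPS libraries were above every other library. It rose by 1.83 ± 0.35 in LPS against control (limma, adjusted p = 0.00664), with any 1 library left out, and fell by 1.85 ± 0.35 in LPS+Sal-B against LPS (adjusted p = 0.0117; up to 0.0713 without 1 treated library, each of which ended the call). The gene model of Hist1h2bc holds no stem-loop.

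Hist2h2be (chr3:96221119-96223738, plus strand) was lower in every treated library than in control, at 1.14 and 0.963 FPKM in LPS+Sal-B, 1.25 and 1.89 in LPS and 6.12 and 7.65 in control. It fell by 1.62 ± 0.17 in LPS against control (limma, adjusted p = 0.000869) and fell by 1.94 ± 0.17 in LPS+Sal-B against control (adjusted p = 0.000289), with any 1 library left out. No 100-base stretch of it lay in another clustered histone gene. Hist1h2bb (chr13:23746734-23747241, plus strand) was highest in both LPS+Sal-B libraries, at 4.13 and 3.57 FPKM in LPS+Sal-B, 1.16 and 0 in LPS and 0.572 and 0.572 in control. It rose by 1.72 ± 0.35 in LPS+Sal-B against LPS (adjusted p = 0.0140; up to 0.0853 without 1 LPS+Sal-B library, either of which ended the call) and by 1.62 ± 0.35 against control (adjusted p = 0.00777). With a pseudocount of 0.1 FPKM neither rise of Hist1h2bb passed.

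Hist1h2bg (chr13:23571396-23572013, plus strand) stood at 5.88 and 5.28 FPKM in LPS+Sal-B, 5.72 and 4.51 in LPS and 2.89 and 1.27 in control, so both treated groups were above control and overlapped each other. It rose by 1.04 ± 0.27 in LPS against control (limma, adjusted p = 0.0191; up to 0.101 without 1 LPS library, either of which ended the call) and by 1.15 ± 0.27 in LPS+Sal-B against control (adjusted p = 0.0108; 0.0563 without LPS+Sal-B replicate 2). Hist2h2bb (chr3:96269752-96270132, plus strand) passed no test, at 9.52 and 8.35 FPKM in LPS+Sal-B, 6.998 and 9.08 in LPS and 8.29 and 8.25 in control. Hist1h2br (chr13:21833743-21837530, plus strand) stood at 0.706 and 0.725 FPKM in LPS+Sal-B, 1.27 and 1.71 in LPS and 0.656 and 0.886 in control, highest in both LPS libraries. It passed the filter only through LPS, the group where it was high. It rose by 0.49 ± 0.13 in LPS against control (adjusted p = 0.0211; up to 0.0623 without either LPS+Sal-B library or control replicate 2, each of which ended the call, as did a fit of only the 2 groups). It fell by 0.53 ± 0.13 in LPS+Sal-B against LPS (adjusted p = 0.0245; up to 0.137 without 1 LPS+Sal-B library, either of which ended the call), and that call was also lost under quantile normalization and scaling to the same total.

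Among the other H2B genes, Hist1h2bk rose in both treated groups against control, at 2.56 and 2.28 FPKM in LPS+Sal-B, 1.47 and 1.63 in LPS and 0.987 and 0.535 in control. Hist1h2bj rose in LPS+Sal-B against both other groups, at 1.43 and 1.94 FPKM in LPS+Sal-B, 0.913 and 0.105 in LPS and 0.396 and 0.225 in control. It passed the filter only through LPS+Sal-B, so its rises are no support for a rise of H2B. Hist1h2bm and Hist1h2bn passed no test. Hist1h2be, Hist1h2bf, Hist1h2bl, Hist1h2bp and Hist1h2bq were too low to be tested, and the highest value among them was 1.55 FPKM.

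Most H3 genes rose when Sal-B was added to LPS. Of 12 H3 genes, 8 rose and 0 fell in LPS+Sal-B against LPS, with a median log2 fold change of 0.70. LPS alone against control gave 0 rises and 4 falls, with a median of -0.45, but after quantile normalization 2 rose and 0 fell, and with libraries scaled to the same median 1 rose and 2 fell. LPS+Sal-B against control gave 4 rises and 1 fall, and 9 and 0 after quantile normalization. Without rescaling, 10.5% of all genes tested rose and 31.8% fell in LPS+Sal-B against LPS. In LPS against control these shares were 14.2% and 48.9%, and in LPS+Sal-B against control 14.0% and 58.8%. The 8 rises became 3 without either LPS+Sal-B library and 5 without LPS replicate 3, and the 4 falls became 2 without LPS replicate 3. Hist1h3e (chr13:23561534-23562369, minus strand) stood at 6.24 and 7.03 FPKM in LPS+Sal-B, 2.70 and 1.84 in LPS and 2.29 and 2.71 in control. Its LPS+Sal-B libraries were above all others and its LPS and control libraries overlapped. It rose by 1.23 ± 0.16 in LPS+Sal-B against LPS (limma, adjusted p = 0.00420) and by 1.13 ± 0.16 against control (adjusted p = 0.00160), with any 1 library left out.

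Hist2h3b (chr3:96268654-96269141, plus strand), the highest H3 gene, stood at 7.76 and 8.83 FPKM in LPS+Sal-B, 5.48 and 4.62 in LPS and 8.12 and 6.18 in control. The LPS libraries were lowest and the other groups overlapped. It rose by 0.62 ± 0.16 in LPS+Sal-B against LPS (limma, adjusted p = 0.0265; up to 0.152 without 1 treated library, each of which ended the call). Hist2h3c2 (chr3:96238108-96239127, minus strand) stood at 7.93 and 7.29 FPKM in LPS+Sal-B, 4.81 and 3.30 in LPS and 6.10 and 5.81 in control, with no overlap between groups. It rose by 0.78 ± 0.16 in LPS+Sal-B against LPS (adjusted p = 0.0146; up to 0.101 without either LPS+Sal-B library or LPS replicate 3, each of which ended the call). Its fall of 0.48 ± 0.16 in LPS against control (adjusted p = 0.0460) held only with all libraries or without LPS replicate 2 (adjusted p up to 0.172), and was lost when libraries were scaled to the same median, under quantile normalization and in a fit of only the 2 groups.

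Hist2h3c1 (chr3:96246685-96248509, plus strand) was lower in every treated library than in control, at 0.992 and 2.52 FPKM in LPS+Sal-B, 2.20 and 1.86 in LPS and 6.91 and 5.70 in control. It fell by 1.27 ± 0.28 in LPS against control (limma, adjusted p = 0.0105; 0.0618 without LPS replicate 3) and fell by 1.46 ± 0.28 in LPS+Sal-B against control (adjusted p = 0.00481), and quantile normalization ended both calls. Hist1h3c and Hist1h3i rose in LPS+Sal-B against LPS and fell in LPS against control. Hist1h3b, Hist1h3f and Hist1h3h rose in LPS+Sal-B against both other groups. Hist1h3b stood at 3.86 and 3.73 FPKM in LPS+Sal-B, 1.40 and 1.60 in LPS and 1.77 and 1.53 in control. Hist1h3f passed the filter only through LPS+Sal-B, so its rises are no support for a rise of H3. Hist1h3a, Hist1h3d and Hist1h3g passed no test.

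H4 genes encode the same protein, mostly from differing sequences, and those that passed a test in LPS+Sal-B were higher there. Of 11 tested H4 genes, 5 rose and 0 fell in LPS+Sal-B against LPS, and 6 rose and 0 fell in LPS+Sal-B against control. LPS alone against control gave 1 rise and 1 fall. Shares of all genes tested were 10.5% and 31.8%, 14.0% and 58.8%, and 14.2% and 48.9% in the order of these 3 comparisons. With the same median the H4 counts were 2 and 1 in LPS and 8 and 0 in LPS+Sal-B against control, and after quantile normalization 4 and 0 in LPS and 9 and 0 in LPS+Sal-B. Hist1h4d (chr13:23581598-23582735, plus strand), the highest H4 gene, stood at 7.25 and 5.78 FPKM in LPS+Sal-B, 2.94 and 2.19 in LPS and 2.57 and 2.73 in control. Its LPS+Sal-B libraries were above all others. It rose by 1.08 ± 0.16 in LPS+Sal-B against LPS (limma, adjusted p = 0.00540; 0.0521 without LPS+Sal-B replicate 2) and by 1.04 ± 0.16 against control (adjusted p = 0.00195). No 100-base stretch of Hist1h4d lay in another clustered histone gene. Only 8 H4 genes were tested without LPS+Sal-B replicate 2 and 9 without LPS+Sal-B replicate 3. The H4 rises against LPS became 0 without LPS+Sal-B replicate 2, 2 without LPS+Sal-B replicate 3 and 3 without LPS replicate 3, and those against control became 1 and 3 without the same LPS+Sal-B libraries in turn.

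Hist1h4k (chr13:21750194-21750505, minus strand) stood at 3.21 and 2.42 FPKM in LPS+Sal-B, 1.82 and 2.95 in LPS and 1.12 and 0.757 in control. Both control libraries were lowest. It rose by 0.79 ± 0.21 in LPS against control (limma, adjusted p = 0.0214; up to 0.0940 without LPS replicate 3 or control replicate 3, either of which ended the call) and by 0.98 ± 0.21 in LPS+Sal-B against control (adjusted p = 0.00810; 0.0520 without LPS+Sal-B replicate 2). Hist1h4n (chr13:21831767-21832196, minus strand) stood at 4.82 and 5.16 FPKM in LPS+Sal-B, 3.65 and 2.59 in LPS and 0.594 and 3.73 in control and passed no test. Its 2 control libraries lay far apart. Hist1h4a, Hist1h4h and Hist2h4 rose in LPS+Sal-B against both other groups. Hist1h4a stood at 3.39 and 3.57 FPKM in LPS+Sal-B, 0.951 and 0.568 in LPS and 0.829 and 0.413 in control. It passed the filter only through LPS+Sal-B, the group where it was high. The H4 counts above include Hist1h4a, and its rises are no support for a rise of H4. Hist1h4f rose in LPS+Sal-B against LPS and fell in LPS against control, and Hist1h4m rose in LPS+Sal-B against control. Hist1h4b, Hist1h4c and Hist1h4i passed no test, and Hist1h4j and Hist4h4 were too low to be tested.

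The linker histone genes did not share 1 course. Hist1h1e (chr13:23620629-23622558, minus strand), H1f4 in RefSeq, stood at 17.4 and 17.6 FPKM in LPS+Sal-B, 6.64 and 7.52 in LPS and 3.13 and 3.31 in control, with no overlap between groups. It was the only member that rose in all 3 comparisons: by 1.20 ± 0.10 in LPS+Sal-B against LPS (limma, adjusted p = 0.00194), by 0.94 ± 0.10 in LPS against control (adjusted p = 0.000939) and by 2.14 ± 0.10 in LPS+Sal-B against control (adjusted p = 9.26e-05). Each of these calls held under every alternative and with any 1 library left out. Hist1h1c (chr13:23738808-23740367, plus strand), H1f2 in RefSeq, stood at 8.07 and 8.49 FPKM in LPS+Sal-B, 20.4 and 24.4 in LPS and 11.1 and 5.02 in control, highest in both LPS libraries. It rose by 1.45 ± 0.32 in LPS against control (adjusted p = 0.0112; 0.0673 without LPS replicate 3). It fell by 1.33 ± 0.32 in LPS+Sal-B against LPS (adjusted p = 0.0236; up to 0.118 without 1 treated library, each of which ended the call, as did quantile normalization). The 16 bases of the stem-loop printed above are identical in Hist1h1e and Hist1h1c.

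Hist1h1b (chr13:21779883-21780625, minus strand) stood at 2.68 and 2.43 FPKM in LPS+Sal-B, 0.836 and 0.206 in LPS and 0.891 and 1.38 in control. Its LPS+Sal-B libraries were above all others. It rose by 1.26 ± 0.23 in LPS+Sal-B against LPS (limma, adjusted p = 0.0101; up to 0.0723 without 1 LPS+Sal-B library, either of which ended the call). It rose by 0.74 ± 0.23 in LPS+Sal-B against control (adjusted p = 0.0287; up to 0.116 without either LPS+Sal-B library or control replicate 2, each of which ended the call, as did a pseudocount of 0.1 FPKM). Hist1h1a passed no test, at 1.57 and 1.499 FPKM in LPS+Sal-B, 1.12 and 0.891 in LPS and 1.56 and 0.796 in control.

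H2A and H2B genes often lie head to head and share the stretch between their starts, and 11 such pairs had 176 to 302 bases between the starts. In most pairs the partners were far from equal in level. In 8 pairs the H2A gene was higher, by 6.11- to 668-fold in mean FPKM with a median of 58.6-fold, and in 3 pairs the H2B gene was higher, by 1.01- to 7.44-fold. Hist1h2ao averaged 327 FPKM over the 6 libraries and its partner Hist1h2bq 0.489. Hist1h2ap averaged 321 FPKM and its partner Hist1h2br 0.992. Large ratios rest on low H2B values and are uncertain. Partners Hist1h2bf, Hist1h2bl, Hist1h2bp and Hist1h2bq were too low to be tested. Much of the sequence is also shared. Of the 100-base stretches, 94.8% of Hist1h2bq and 86.4% of Hist1h2br lay in another clustered histone gene, as did 92.7% of Hist1h2ao and 92.2% of Hist1h2ap.

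**Figure D4:**
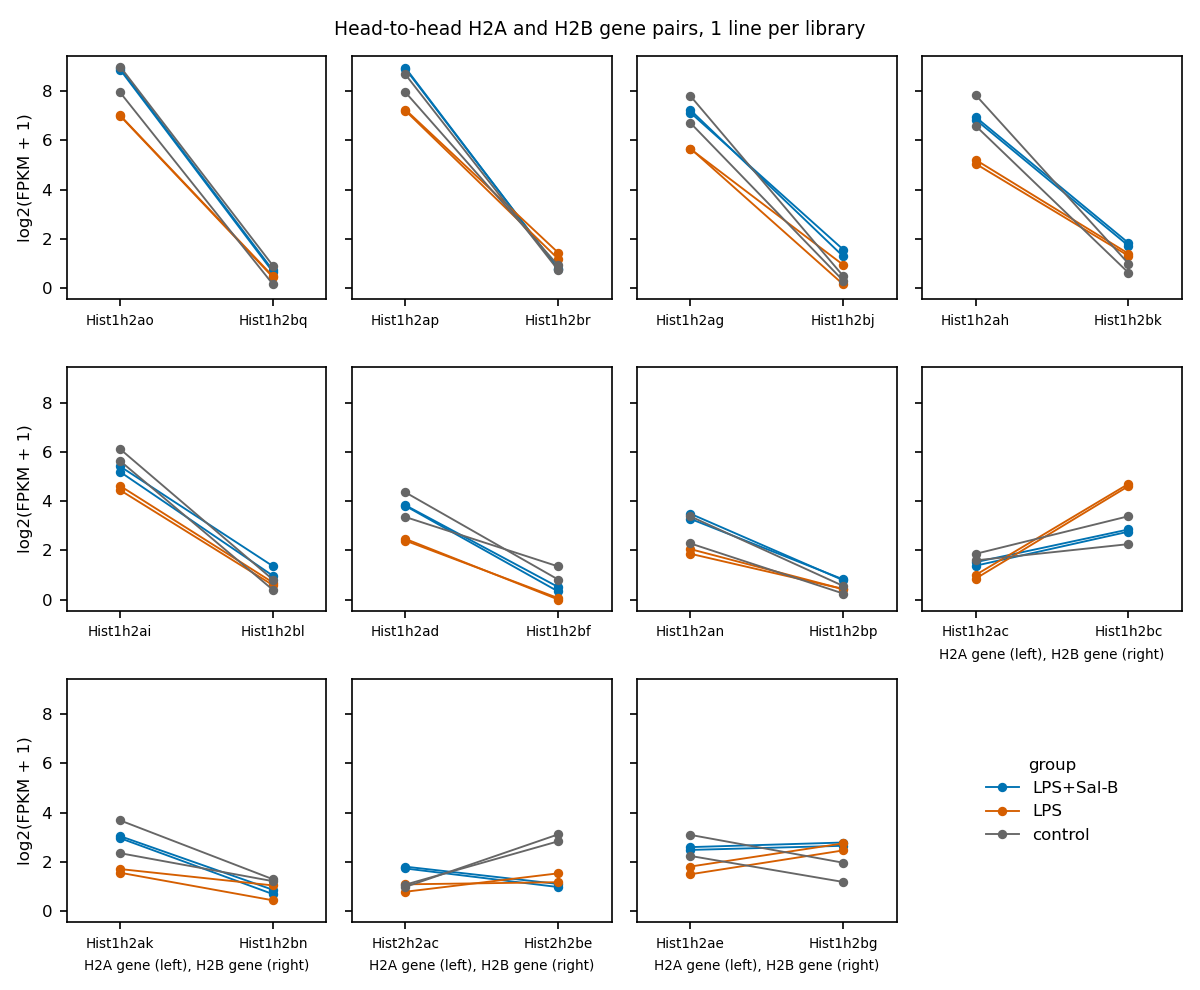
Log2(FPKM + 1) of the H2A gene (left) and the H2B gene (right) in each of the 11 head-to-head pairs, with 1 line per library coloured by group. In the pair of Hist1h2ac and Hist1h2bc the LPS lines slope up most steeply, with Hist1h2bc at 25.1 and 29.2 times Hist1h2ac.

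The partners also differed in how they changed. In the pair of Hist1h2ac and Hist1h2bc, Hist1h2bc was 3.33 and 3.62 times its partner in LPS+Sal-B, 25.1 and 29.2 times in LPS and 3.61 and 1.87 times in control. Hist1h2ac itself stood at 1.86 and 1.59 FPKM in LPS+Sal-B, 0.996 and 0.801 in LPS and 2.62 and 2.01 in control, lowest in LPS where its partner was highest. In the pair of Hist2h2ac and Hist2h2be, Hist2h2be was 0.459 and 0.417 times its partner in LPS+Sal-B, 1.12 and 2.62 times in LPS and 5.55 and 7.90 times in control. Here the higher partner changed between groups. In the pair of Hist1h2ae and Hist1h2bg, Hist1h2bg was 1.17 and 1.15 times its partner in LPS+Sal-B, 2.29 and 2.49 times in LPS and 0.384 and 0.341 times in control. In the pair of Hist1h2ad and Hist1h2bf the H2A gene was higher in all 6 libraries, as it was in the pair of Hist1h2ai and Hist1h2bl, that of Hist1h2ak and Hist1h2bn and that of Hist1h2an and Hist1h2bp.

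RefSeq promoter windows of GRCm38.p6, from 250 bases before to 50 bases after the gene start, were matched for 55 members. They were searched on both strands for TATAAA, the core of a TATA box, for CCAAT and for the octamer ATTTGCAT, the binding sequence of Oct-1 that is known from H2B promoters. TATAAA lay in 30 of the 55 members (54.5%), against 13.6% of all RefSeq windows. It was counted anywhere in a window, so a match need not be a TATA box. Sense matches started at positions from -250 (Hist1h4f) to 41 (Hist1h4a) relative to the gene start. Some members, such as Hist1h2bf, Hist1h2bk, Hist1h2bn and Hist1h2bp, held it only on the other strand. CCAAT lay in 46 (83.6%), against 37.4%, and these were every matched H1, H2A, H2B and H3 window but only 3 of 12 H4 windows. ATTTGCAT lay in 12 members (21.8%), 6 of H2A and 6 of H2B, against 1.74%. Hist1h2be had 2 windows and was counted for a match in either, with ATTTGCAT in 1 of them. Windows of head-to-head partners can overlap, and those of Hist1h2ag and Hist1h2bj share 252 of 300 bases. A match of letters is a description and not a bound site. Windows of 4 members whose levels went different ways are shown 5' to 3' with matches in capitals, a CCAAT on the other strand reading ATTGG:
Hist1h2ag, chr13:22042900-22043199, minus strand: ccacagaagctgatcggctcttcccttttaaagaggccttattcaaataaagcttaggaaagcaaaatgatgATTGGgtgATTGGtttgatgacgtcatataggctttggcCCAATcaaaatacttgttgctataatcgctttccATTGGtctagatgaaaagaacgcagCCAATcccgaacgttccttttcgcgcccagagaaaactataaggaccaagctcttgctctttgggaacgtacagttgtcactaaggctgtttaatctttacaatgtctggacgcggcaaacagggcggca
Hist1h2bb, chr13:23746484-23746783, plus strand: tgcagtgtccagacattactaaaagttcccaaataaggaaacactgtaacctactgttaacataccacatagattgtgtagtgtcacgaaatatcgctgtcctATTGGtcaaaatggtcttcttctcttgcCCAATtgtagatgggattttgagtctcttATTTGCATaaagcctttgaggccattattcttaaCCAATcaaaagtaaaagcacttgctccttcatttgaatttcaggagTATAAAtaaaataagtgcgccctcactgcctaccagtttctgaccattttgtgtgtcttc
Hist1h1e, chr13:23622509-23622808, minus strand: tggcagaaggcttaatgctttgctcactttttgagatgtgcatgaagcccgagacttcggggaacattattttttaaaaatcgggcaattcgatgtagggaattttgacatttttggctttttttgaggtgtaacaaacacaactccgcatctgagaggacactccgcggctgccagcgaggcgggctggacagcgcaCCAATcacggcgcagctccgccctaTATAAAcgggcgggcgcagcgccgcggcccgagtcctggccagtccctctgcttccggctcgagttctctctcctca
Hist1h1c, chr13:23738557-23738856, plus strand: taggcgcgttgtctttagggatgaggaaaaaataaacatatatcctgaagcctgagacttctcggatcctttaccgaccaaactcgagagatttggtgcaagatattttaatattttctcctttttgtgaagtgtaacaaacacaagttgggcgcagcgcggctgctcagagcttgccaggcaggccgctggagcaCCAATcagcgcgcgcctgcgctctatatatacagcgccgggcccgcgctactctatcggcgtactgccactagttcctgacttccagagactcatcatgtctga

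The Hist1h2ag window held 5 CCAAT matches and no TATAAA, and that of Hist1h2bb held all 3 motifs. The linker histone windows of Hist1h1e and Hist1h1c each held a single CCAAT match, and only that of Hist1h1e held TATAAA.

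Members were also set apart by where their gene models end. Models of 22 members ended within 60 bases after the stem-loop, those of 20 members ran 74 to 2445 bases past it, and 18 models held no stem-loop. These 18 are not 1 kind of 3' end. Some models stop at the stop codon or just after it, with 0 bases beyond it in Hist1h1b and Hist1h2ai and 1 in Hist1h2af. A stem-loop beyond such a model could not be read. Others run on, with 742 bases after the stop codon in Hist1h2bc and 2192 in Hist2h2be. Among tested members in LPS+Sal-B against LPS, 11 of 20 with models ending near the stem-loop rose and 1 fell, 9 of 17 with longer models rose and 1 fell, and 9 of 16 without a stem-loop in the model rose and 2 fell. The same kinds in LPS against control ran as follows: 2 rose and 6 fell near the stem-loop, 3 rose and 5 fell in the longer models, and 3 rose and 6 fell without it. Of all genes tested, 10.5% rose and 31.8% fell in LPS+Sal-B against LPS, and 14.2% and 48.9% in LPS against control. Hist1h2ap, Hist1h1e and Hist1h2af, for example, belong to these kinds in that order, and all 3 were higher in LPS+Sal-B than in LPS. Hist2h2aa2, Hist1h1c and Hist1h2bc belong to the same kinds in that order, and all 3 fell in LPS+Sal-B against LPS.

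Genes of S phase, which histone synthesis accompanies, gave falls and no rises against control. Of 29 S-phase and DNA replication genes, 0 rose and 1 fell (Pcna) in LPS+Sal-B against LPS, with a median log2 fold change of -0.22. The falls were 3.45% of the list, against 31.8% of all genes tested, of which 10.5% rose. The median of all genes was also -0.22. Against control, 0 rose and 16 fell in LPS (55.2%, near the 48.9% of all genes tested), with a median of -0.85, and 0 rose and 22 fell in LPS+Sal-B (75.9%, against 58.8% of all genes). With libraries scaled to the same median, 8 fell and 0 rose in each treated group against control, and in LPS+Sal-B against LPS 1 rose and 0 fell. Of the 29 genes, 28 were higher in control replicate 2 than in control replicate 3, with a median log2 difference of 0.92. The size of the falls against control therefore leans on control replicate 2. Counts for this list without 1 control library are not given here. The genes below had the smallest p in LPS against control. Their control libraries differed by less than that median, so they do not show this spread. Ccna2, the cyclin of S phase and G2, stood at 15.5 and 16.6 FPKM in LPS+Sal-B, 18.9 and 17.4 in LPS and 98.4 and 83.6 in control, and fell in both treated groups against control. Ccne2, a cyclin of S-phase entry, stood at 1.10 and 1.25 FPKM in LPS+Sal-B, 0.637 and 0.506 in LPS and 6.12 and 4.42 in control, with the same calls. Gins3, a subunit of the replicative helicase, stood at 9.38 and 10.3 FPKM in LPS+Sal-B, 11.2 and 12.0 in LPS and 23.4 and 23.1 in control, again with the same calls.

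**Figure D5:**
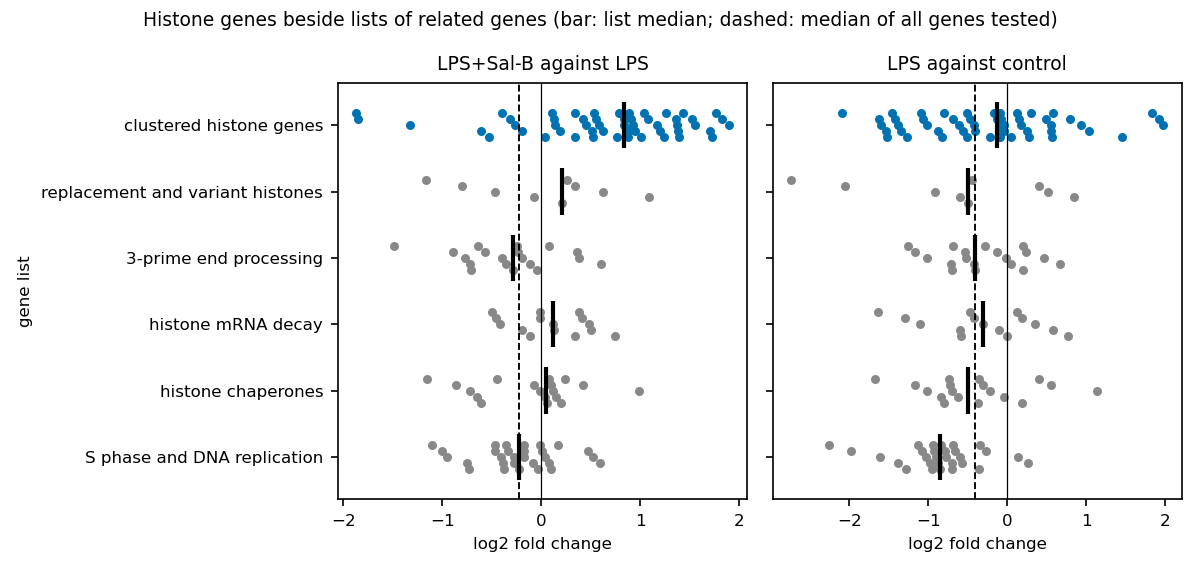
Log2 fold changes of the 53 tested clustered histone genes and of the lists of related genes (1 point per gene, bar at the list median, dashed line at the median of all genes tested) in LPS+Sal-B against LPS and LPS against control. In LPS+Sal-B against LPS the histone median is 0.83, and the medians of the S-phase list and of all genes tested are both -0.22. In LPS against control the histone median is -0.14, that of the S-phase list -0.85 and that of all genes -0.40.

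The genes that make or end histone mRNAs gave shares of falls near or below those of all genes tested. Of 19 tested genes for histone transcription and 3' end processing, 1 rose and 7 fell (36.8%, against 31.8% of all genes) in LPS+Sal-B against LPS. In LPS against control 2 rose and 7 fell (36.8%, against 48.9%), and in LPS+Sal-B against control 4 rose and 11 fell (57.9%, against 58.8%). Rises were 5.26%, 10.5% and 21.1% in the same order, against 10.5%, 14.2% and 14.0% of all genes. Scaling to the same median gave 3 and 5, 7 and 3, and 7 and 7 in the same order. Npat, the activator of histone gene transcription, stood at 5.80 and 6.33 FPKM in LPS+Sal-B, 9.24 and 9.78 in LPS and 23.7 and 21.5 in control, and fell in all 3 comparisons. Ncbp1, of the cap-binding complex, also fell in all 3, at 13.7 and 14.6 FPKM in LPS+Sal-B, 26.1 and 23.5 in LPS and 40.5 and 41.2 in control. Cstf2, a subunit of the cleavage stimulation factor, fell in LPS against control by 1.26 ± 0.11 (limma, adjusted p = 0.000586). Slbp, which binds the stem-loop, fell in both treated groups against control and did not pass in LPS+Sal-B against LPS, at 2.85 and 3.01 FPKM in LPS+Sal-B, 3.67 and 3.63 in LPS and 7.55 and 5.77 in control. Slbp was named for its role, outside the rule for named genes.

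Of 15 genes of histone mRNA decay, 4 rose and 1 fell in LPS+Sal-B against LPS (6.67% fell, against 31.8% of all genes), and 2 rose and 6 fell in LPS against control (40%, against 48.9%). Rises were 26.7% and 13.3% in that order, against 10.5% and 14.2% of all genes. With the same median, 6 rose and 3 fell in LPS against control. Among these Zcchc11, a uridylyl transferase, stood at 6.10 and 6.07 FPKM in LPS+Sal-B, 4.11 and 3.91 in LPS and 9.60 and 13.2 in control. Lsm2, of the Lsm ring, and Eri1, the nuclease that trims the histone stem-loop, fell in LPS against control by 1.64 ± 0.22 and 1.11 ± 0.14 (limma, adjusted p = 0.00180 and 0.00146). Of 18 histone chaperone and assembly genes, 1 rose and 5 fell in LPS+Sal-B against LPS (27.8%, against 31.8% of all genes), and 2 rose and 11 fell in LPS against control (61.1%, against 48.9%). Their rises were 5.56% and 11.1%, against 10.5% and 14.2% of all genes. With the same median, 4 rose and 2 fell in LPS against control. Nap1l1, a chaperone of H2A and H2B, stood at 67.7 and 69.5 FPKM in LPS+Sal-B, 109 and 107 in LPS and 173 and 179.9 in control and fell in all 3 comparisons. Supt16, a subunit of the FACT complex, fell in LPS against control by 1.17 ± 0.10 (adjusted p = 0.000512), and Ipo4, an import factor for histones, rose by 1.13 ± 0.11 (adjusted p = 0.000659).

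Replacement and variant histone genes had a mixed course. Of 9 tested genes, 3 rose and 2 fell in LPS+Sal-B against LPS, 1 rose and 5 fell in LPS against control, and 1 rose and 5 fell in LPS+Sal-B against control (55.6% in both, against 48.9% and 58.8% of all genes). In LPS+Sal-B against LPS 33.3% rose and 22.2% fell, against 10.5% and 31.8% of all genes. Rises against control were 11.1% in both treated groups, against 14.2% and 14.0% of all genes. Scaling to the same median gave 4 and 2, 3 and 3, and 4 and 3 in the same order. Cenpa, the H3 variant of centromeres, stood at 22.0 and 22.9 FPKM in LPS+Sal-B, 10.0 and 9.98 in LPS and 19.4 and 20.1 in control, the lowest in both LPS libraries. H2afv, an H2A.Z gene, stood at 6.92 and 7.05 FPKM in LPS+Sal-B, 4.08 and 4.28 in LPS and 32.9 and 34.1 in control. H2afx, the variant phosphorylated at DNA breaks, whose gene is known to yield both stem-loop and polyadenylated mRNA, stood at 16.8 and 17.7 FPKM in LPS+Sal-B, 14.0 and 15.5 in LPS and 82.4 and 50.3 in control, and fell in both treated groups against control. Whether the histone genes followed the S-phase list, the macrophage marker sum or the way RNA was captured was not tested.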

How the data were processed

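Per the labels' protocols, RNA was extracted with Trizol, mRNA was enriched by poly(A) selection or by rRNA removal, and stranded libraries were sequenced on an Illumina HiSeq instrument. The submitters' processing notes name cutadapt, HISAT2 2.0.5, StringTie and GRCm38. The authors deposited FPKM per gene, named so in the file headers. Scaling between libraries and the treatment of fragments matching several genes are not given in the sources used here. The table held protein-coding genes whose highest group mean was at least 0.500 FPKM, and read counts were not used here, so no counting interval is given.

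Members and gene lists were chosen with earlier results of these data known. A pseudocount of 1 was added to FPKM before taking log2, 10014 of 10780 genes were kept for testing because 2 or more libraries reached 1 FPKM, and a single model over the 6 libraries fitted the 3 groups, leaving 3 residual degrees of freedom (limma 3.58.1, R 4.3.3, empirical Bayes with a trend, two-sided, Benjamini-Hochberg adjusted p under 0.05 over all genes tested). Errors of log2 fold changes are SE. Genes described with values in every library were, in each class, the 3 with the highest mean and, in each comparison, the 3 largest rises and 3 largest falls among members that passed; from each related list, the 3 genes with the smallest p in LPS against control. Values by library of Hist1h1a, Hist1h2ab, Hist1h2ac, Hist2h2aa1, Hist2h2ac, Hist3h2a, Hist1h2bj, Hist1h2bk, Hist1h3b and Hist1h4a were given outside this rule, chosen after their values were seen. Stem-loops and 100-base stretches were read from GENCODE M21 transcripts and promoters from RefSeq. GENCODE M21 held 7 further protein-coding genes by the same rule, which were not analysed here. Alternatives changed the pseudocount to 0.1, dropped the filter, rescaled the libraries, added a replicate block, fitted only the 2 groups compared, dropped the trend and left out each library.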

Additional observations from a re-analysis of the deposited data

How the results depend on the processing

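Counts of histone genes called are given here as rises and falls. Shares of all genes given in the results, also beside counts of classes and related lists, are from the fit without rescaling and with all libraries. Shares after rescaling or with 1 library left out are not given here. Counts from those fits therefore have no share beside them. In LPS+Sal-B against LPS the 29 rises ran from 6 to 35 with 1 library left out, and the 4 falls from 0 to 5, with 1 fall under quantile normalization and 2 with libraries scaled to the same total. In LPS against control the 8 rises ran from 4 to 9 with 1 library left out and were 13 under quantile normalization, and the 17 falls ran from 9 to 19 and were 11 with libraries scaled to the same median and 8 under quantile normalization. In LPS+Sal-B against control the 18 rises ran from 9 to 31 with 1 library left out and were 32 with the same median and 33 under quantile normalization, and the 3 falls ran from 2 to 13 and were 1 under quantile normalization. Scaling to the same median moved the median of all genes in LPS against control to 0.01, which by construction shifts all genes together. The causes of the other shifts were not tested. A group left with 1 library is assumed to vary like the other groups.

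Of 44 calls of named histone genes, 32 kept direction and call under every alternative that keeps all libraries. Only the fall of Hist1h2ai in LPS+Sal-B against control changed sign, to 0.17 with the same median. A fit with the replicate number as a block gave 28 rises and 4 falls in LPS+Sal-B against LPS, 10 and 18 in LPS against control and 20 and 2 in LPS+Sal-B against control. Among calls of named histone genes the block ended 1, the fall of Hist1h2ai in LPS+Sal-B against control (adjusted p = 0.0507). Same-numbered libraries hardly deviated together (correlations of 0.00367 to 0.0348), so the numbers do not pair the libraries. Depth is unknown, and with 2 libraries a group the differences of low members such as Hist1h4c and Hist1h2bn may lie below what could be detected.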
